A study of Sorghum bicolor with 9 samples.

Results

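The genes described here encode proteins with an RNA recognition motif. They are the 230 of 35281 genes in the deposited table whose family label is RRM_1, and 203 of them were among the 22356 genes with enough reads to be tested. The RNA recognition motif is a small fold that binds single-stranded RNA and is among the commonest RNA-binding folds of plants. Proteins that carry it take part in splicing, polyadenylation, export, translation and decay of messenger RNA and, in leaves, in the processing and stability of chloroplast and mitochondrial transcripts. Serine/arginine-rich splicing factors, glycine-rich RNA-binding proteins, poly(A)-binding proteins and chloroplast ribonucleoproteins all belong to this class. The label does not say which member is which: the table gives these genes no descriptive name, so members are identified by locus and no role is assigned to any of them.

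Total RNA was sequenced from leaves of Sorghum bicolor BTx623, a wild-type inbred that serves as the reference line of the crop, taken when the plants had 4 leaves. Control plants grew under normal conditions, moderately stressed plants in saline-alkali soil of 3‰ salt and pH 8.1, and severely stressed plants in saline-alkali soil of 5‰ salt and pH 8.1. Another tag of the stressed samples writes the same digits as percent, while for the control soil neither salt content nor pH was stated. Each of the 3 groups held 3 biological replicates, and all groups were of the same genotype. Marker labels chosen to check the tissue (chlorophyll a/b-binding proteins, the Rubisco small subunit and PEP carboxylase) match no gene of the table, so the leaf label could not be checked in that way.

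Libraries held 17792497 to 22449989 counted reads, and 3 counts, the number that a count of 0 allows, equal 0.134 to 0.169 CPM (a gene's read count scaled to the library total), for counting error only. Levels are given as normalised CPM, for which the library total was first scaled by the trimmed mean of M-values (TMM). The scaling factors were 0.904 to 1.02 in control, 1.33 to 1.41 in moderate and 0.512 to 0.973 in severe libraries. Severe replicates varied most: the median SD of log2 CPM over members was 0.0998 in control, 0.164 in moderate and 0.422 in severe leaves, against 0.193, 0.221 and 0.517 over all tested genes. Severe replicate 1 had the lowest scaling factor. It was the highest severe library for 59 of the 80 members that were higher in severe than in control leaves, and the lowest for 36 of the 43 that were lower. This order is of normalised CPM and so depends on the scaling factors. The same shares over all tested genes were not computed.

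As a class, the members took overlapping shares of the reads in the 3 conditions. They held 1.83, 1.95 and 2.02% of counted reads in control libraries, 2.17, 2.06 and 2.00% in moderate libraries and 1.43, 1.88 and 2.19% in severe libraries. In these bulk leaf samples, fewer cells of a type and less RNA per cell cannot be told apart. In each library, the 3 members with the most reads there held 41.6 to 53.2% of the members' reads. They were not the same 3 in every library.

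The most-read member was Sobic.001G141300 (chromosome 1, 11339409 to 11340551, minus strand, in the coordinates of the deposited table; the build was not given in the sources used here). It had 4493, 3938 and 4317 CPM in control, 3553, 2830 and 3142 CPM in moderate and 9294, 7933 and 7567 CPM in severe leaves. All 3 severe libraries lay above all moderate ones, and severe against moderate the log2 change was 1.38 (SE 0.52), with adjusted p = 0.0159 from edgeR's quasi-likelihood test, adjusted by the Benjamini-Hochberg method. Against control the changes did not pass the threshold of 0.05: -0.42 (SE 0.43) in moderate leaves (adjusted p = 0.518) and 0.96 (SE 0.47) in severe leaves (adjusted p = 0.0618). The severe-to-moderate call was lost without moderate replicate 2 or 3, where the adjusted p reached 0.065, with raw library totals (0.129) and with the 6 libraries compared alone (0.109). The severe-to-control change passed without severe replicate 1 or 3 (down to 0.019) and with DESeq2 (1.12e-06). Per length of the gene's span it also led the class in control leaves, at 3603 ± 264 FPKM (fragments scaled to library size and to kilobases of span; SD, n = 3). Sobic.008G185900 followed with 1110 ± 71.5 FPKM and Sobic.002G386400 with 925 ± 67.7 FPKM, while the next member, Sobic.003G401400, stood at 156 ± 3.85 FPKM.

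The members behind it in reads did not move together. Sobic.002G386400 fell steeply in severe leaves: it had 2567, 2242 and 2363 CPM in control, 748, 1022 and 1014 CPM in moderate and 18.6, 319.9 and 81.1 CPM in severe leaves. Every severe library lay below every control and moderate library, although severe replicate 2 stood far above the others of its group, and the log2 change was -4.09 (SE 1.25) against control (adjusted p = 0.00274). Without severe replicate 2 the group mean was 49.8 in place of 139.9 CPM and the change was -5.59. Its moderate level was below control in every library (-1.37 (SE 0.87), adjusted p = 0.264) and passed only when the 6 libraries compared were fitted alone (0.00171). Sobic.008G185900 had 1884, 2116 and 2113 CPM in control, 4296, 2846 and 2812 CPM in moderate and 2213, 1333 and 1238 CPM in severe leaves. Moderate libraries lay above both other groups, and severe and control libraries overlapped. Neither the moderate nor the severe change against control passed, at 0.70 (SE 0.44) (adjusted p = 0.252) and -0.35 (SE 0.41) (adjusted p = 0.441). The severe-to-moderate change of -1.06 (SE 0.47) passed (adjusted p = 0.0408), and that call was lost without any 1 of 8 of the 9 libraries, with adjusted p up to 0.0969. With raw library totals both changes against control passed, at 1.18 in moderate and -0.78 in severe leaves (adjusted p = 0.0199 and 0.0364).

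Of the other members with most reads, Sobic.005G191700 had 302, 302 and 289 CPM in control, 288, 253 and 286 CPM in moderate and 429.9, 439.7 and 552 CPM in severe leaves. Severe libraries were higher than both other groups, by 0.67 (SE 0.28) against control (adjusted p = 0.0277) and 0.78 (SE 0.29) against moderate (adjusted p = 0.0151) on the log2 scale. The first of these calls was lost without any 1 control library (adjusted p up to 0.0932) and the second without moderate replicate 2 (up to 0.061), and both were lost with raw library totals, at 0.379 and 0.013 on the log2 scale (adjusted p = 0.312 and 0.974). Sobic.001G224200 fell in severe leaves, with 6.95, 61.5 and 62 CPM there against 365, 391 and 383 CPM in control leaves (log2 change -3.12 (SE 0.95), adjusted p = 0.00268). Sobic.009G246950 rose in severe leaves, with 606, 296 and 381 CPM there against 118, 113 and 113 CPM in control leaves (log2 change 1.90 (SE 0.48), adjusted p = 0.00044). Sobic.002G150700 averaged 270.5 ± 5.18 CPM in control, 179 ± 16.7 CPM in moderate and 359 ± 43.7 CPM in severe leaves (SD, n = 3 each). Its change passed in severe against moderate (1.00 (SE 0.31), adjusted p = 0.00368) but not against control (adjusted p = 0.0948 for moderate and 0.126 for severe leaves). DESeq2 called both changes against control (adjusted p = 0.00175 and 0.00238), and raw totals ended the severe-to-moderate call (0.551).

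**Figure D1:**
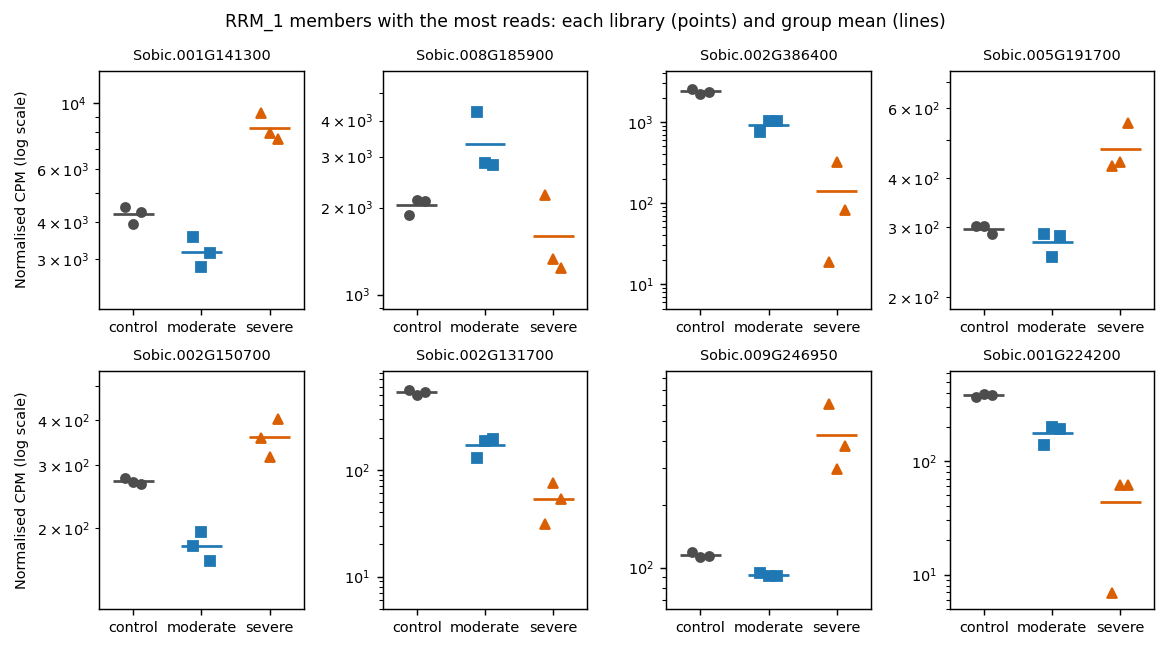
Normalised CPM (log axis) of the 8 members with the most reads, 1 point per library with the group mean as a line, in control, moderate and severe leaves. Sobic.001G141300 has the highest mean in control and severe leaves. In moderate leaves its mean of 3175 CPM lies below the 3318 CPM of Sobic.008G185900. Sobic.002G386400 falls to 139.9 CPM on average in severe leaves, with 1 severe library far above the other pair.

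Counted over all tested members with TMM scaling, rises in moderate against control leaves were rarer than among all tested genes. In both severe comparisons rises were more frequent and falls rarer. Moderate against control, 8 members (3.94%) rose and 17 (8.37%) fell, where 8.94% and 8.17% of all 22356 tested genes did, and 12.3% of members against 17.1% of all tested genes changed in either direction. Severe against control, 80 members (39.4%) rose and 43 (21.2%) fell, against 31.6% and 34.9% of all tested genes (either direction 60.6% against 66.5%). Severe against moderate, 95 members (46.8%) rose and 31 (15.3%) fell, against 29.6% and 33.6% of all tested genes (either direction 62.1% against 63.2%). The 3 comparisons share samples, the control libraries for the first 2 and the stressed libraries for the third, and are not independent of each other.

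The members' changes were also spread less widely than those of all tested genes. The median log2 change of the members was -0.28 in moderate against control, 0.34 in severe against control and 0.50 in severe against moderate leaves, beside medians of 0.015, -0.19 and -0.20 over all tested genes. The lower and upper quartiles of the members were -0.56 and 0.01, -0.59 and 1.12, and -0.33 and 1.40 in these comparisons, against -0.55 and 0.67, -1.76 and 1.37, and -1.67 and 1.18 for all tested genes. Only 26.1% of members had a change above 0 in moderate against control leaves, against 50.6% of all tested genes. In severe leaves 60.1% of members were above control and 66.5% above moderate, against 46.9% and 45.9% of all tested genes. Changes beyond 4 on the log2 scale were rarer among members in both directions: in severe against control 2.46% of members lay above 4 and 0.985% below -4, against 7.55% and 6.99% of all tested genes, and in severe against moderate 1.97% and 0%, against 6.07% and 6.75%. The sets differ in level: 11 of the 203 members but 3855 of the 22356 tested genes were under 1 CPM in control leaves. The part of level in the narrower spread was not tested. Members that passed and fell at least 2-fold were 38 (18.7%) in severe against control, where 32.1% of all tested genes did, and 23 (11.3%) in severe against moderate, where 30.7% did. Rises of at least 2-fold in severe against control leaves were found in 57 members (28.1%), near the 27.7% of all tested genes, and in severe against moderate in 73 (36.0%), against 25.4%. In moderate against control leaves 3 members rose at least 2-fold (1.48%, against 8.06%) and 14 fell at least 2-fold (6.90%, against 7.09%).

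The absolute direction of these medians depends on the scaling, and the displacement from the other genes less so. With raw library totals in place of TMM, the members' medians became 0.20, -0.02 and -0.29 in the same 3 comparisons, because that scaling moved the median of all tested genes by 0.477, -0.297 and -0.775. Members minus all tested genes, the medians differed by -0.30, 0.52 and 0.70 with TMM and by -0.30, 0.46 and 0.69 with raw totals. With raw totals 15 members (7.39%) rose and 4 (1.97%) fell in moderate leaves, against 16.6% and 3.15% of all tested genes. In severe against control 52 (25.6%) rose and 41 (20.2%) fell, against 24.6% and 35.3%, so the shares of rises were near each other. In severe against moderate 42 (20.7%) rose and 48 (23.6%) fell, against 16.7% and 45.2%. The changes below use TMM and are thus relative to the other genes.

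**Figure D2:**
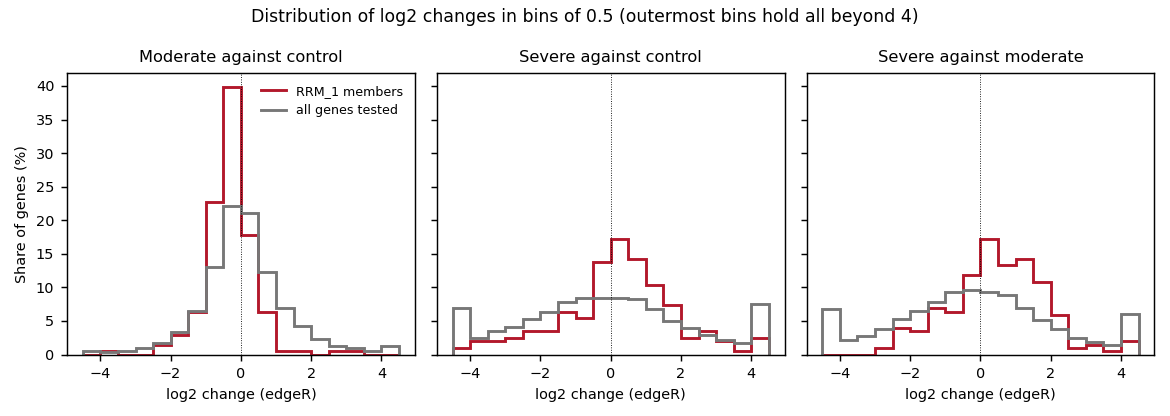
Share of genes (percent, vertical axis) by log2 change (horizontal axis) for the RRM_1 members and for all tested genes, 1 panel per comparison. The members' medians are -0.28, 0.34 and 0.50 in moderate against control, severe against control, severe against moderate. In both severe comparisons members are scarcer than all tested genes among falls and rises beyond 4 on the log2 scale.

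The 25 moderate calls come from the fit of all 9 libraries, and the control and moderate libraries fitted alone gave 16 rises and 78 falls of 199 members tested. In the fit of all 9 libraries the share of falls was 8.37%, near the 8.17% of all tested genes. In the fit of the 6 libraries alone it was 39.2%, against 22.2%. Of the 10 largest falls, 4 passed the threshold whichever single library was left out, and under raw totals as well: Sobic.001G323701, Sobic.002G152800, Sobic.007G018900 and Sobic.006G273400. Groups did not overlap for 126 members (62.1%), against 55.9% of all tested genes.

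Sobic.001G323701 (chromosome 1, 61111829 to 61116329, minus strand) had the largest fall. It had 1.08, 1.28 and 2.98 CPM in moderate leaves, against 32.8, 30.5 and 20.5 CPM in control leaves, a log2 change of -3.96 (SE 1.01) (adjusted p = 0.0044). The highest moderate library lay far below the lowest control library, and severe leaves were low too, at 2, 3.26 and 0.636 CPM. Sobic.002G152800 (chromosome 2, 45422406 to 45424470, minus strand) had 41.2, 42.5 and 46.9 CPM in moderate leaves, against 237, 205 and 191 CPM in control leaves (log2 change -2.28 (SE 0.51), adjusted p = 0.00162). Its severe libraries lay between these groups, at 136, 130.2 and 79.5 CPM. Sobic.007G018900 had 5.97, 8.48 and 7.59 CPM in moderate leaves, against 29.5, 32.9 and 33.3 CPM in control leaves (log2 change -2.12 (SE 0.49), adjusted p = 0.00233). Sobic.006G273400 had 7.3, 18.1 and 13.9 CPM in moderate leaves, against 49.5, 50.8 and 51 CPM in control leaves (log2 change -1.95 (SE 0.52), adjusted p = 0.00581). In all 4 the lowest control library lay above the highest moderate library.

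The other 6 of the 10 largest moderate falls included members with many reads, and each lost its call under some alternative. Sobic.002G131700 averaged 170 ± 35.5 CPM in moderate and 529.7 ± 31.4 CPM in control leaves (SD, n = 3 each), a log2 change of -1.64 (SE 0.49) with adjusted p = 0.0131. Sobic.002G038300 averaged 91.5 ± 12.8 CPM in moderate and 242 ± 6.82 CPM in control leaves (log2 change -1.40 (SE 0.39), adjusted p = 0.00752), and Sobic.007G171800 104 ± 12 CPM in moderate and 339.5 ± 14.2 CPM in control leaves (-1.70 (SE 0.53), adjusted p = 0.0155). Sobic.006G197700, Sobic.004G343000 and Sobic.002G228900 changed by -1.58, -1.80 and -1.37, with adjusted p = 0.0155, 0.0499 and 0.0315. With raw totals none of these 6 passed. Leaving out 1 library ended the call of Sobic.002G038300 only without moderate replicate 1 (adjusted p = 0.0503), and that of Sobic.004G343000 and Sobic.002G228900 without any 1 of the 6 libraries compared (up to 0.169 and 0.134). The adjusted p reached 0.073 for Sobic.002G131700, 0.0853 for Sobic.007G171800 and 0.0835 for Sobic.006G197700. The 7 further members called lower, which the naming rule did not take, changed by -1.17 to -0.79.

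Moderate rises of members averaging at least 5 CPM were all under 2-fold. These 5 were Sobic.002G387200, Sobic.006G236500, Sobic.010G017000, Sobic.010G105600 and Sobic.010G008100, with log2 changes of 0.95, 0.85, 0.82, 0.81 and 0.80 and adjusted p of 0.0385, 0.0155, 0.0242, 0.0377 and 0.0273. Sobic.002G387200 had 19.6, 18.1 and 18.2 CPM in moderate leaves, against 8.52, 9.28 and 11.3 CPM in control leaves. The gap between its groups was wider than the spread within either. Sobic.006G236500 had 53.1, 42.5 and 53.4 CPM in moderate leaves, against 28.6, 28.7 and 25.4 CPM in control leaves. For each of these 5 the call was lost when single control or moderate libraries were left out, with adjusted p up to 0.149, 0.0694, 0.117, 0.13 and 0.109 in the order above. The other 3 risers, Sobic.003G432900, Sobic.001G294600 and Sobic.001G188100, averaged under 5 CPM and are named because they complete the 8, chosen after their values were seen: they had 1.62, 2.02 and 2.17, 2.57, 1.78 and 1.47, and 0.456, 0.437 and 0.401 CPM in moderate leaves, against 0.529, 0.609 and 0.455, 0.423, 0.0507 and 0.253, and 0.0529, 0 and 0.0505 CPM in control leaves. The control libraries of Sobic.001G188100 held 1, 0 and 1 reads, so its rise rests on a level under the limit that a count of 0 allows. None of these 3 exceeded 0.487 CPM, the level that the filter on low counts asks for, in all control libraries. They passed the filter through stressed libraries in which they were higher, so their calls are a description only.

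The number of members that passed in moderate against control leaves differed widely between fits. With the control and moderate libraries alone, the 16 rises and 78 falls were 8.04% and 39.2% of members (against 22.8% and 22.2% of all genes tested in that fit). With DESeq2 on all 9 libraries, 8 rose and 35 fell (all tested genes 14.2% and 13.5%). Without severe replicate 1, 9 rose and 58 fell (all tested genes 16% and 16.1%). Without severe replicate 3, 26 fell (12.7%, against 10.2% of all tested genes). Leaving out a control or moderate library gave 0 to 5 rises and 6 to 11 falls. These falls were 2.93 to 5.37% of members, near the 2.99 to 4.46% of all tested genes. The rises were 0 to 2.44% of members, against 3 to 5.09%.

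Severe stress brought the largest rises of the class, some in members that were close to silent in control leaves. Sobic.001G513200 (chromosome 1, 78076716 to 78078290, plus strand) had 278, 41.8 and 59.5 CPM in severe leaves, against 0.582, 0.457 and 0.152 CPM in control leaves. All severe libraries were far above control, with replicate 1 several times the others, and the log2 change was 8.30 (SE 1.86) (adjusted p = 9.95e-05). The control and moderate means, 0.397 and 0.298 CPM, lay under the 0.487 CPM that the filter on low counts asks for. The gene was thus tested through its severe libraries, and its adjusted p is a description only. Without severe replicate 1 the severe mean was 50.6 in place of 126 CPM and the log2 change 6.97. A gene on the other strand, Sobic.001G513100, overlaps its start by 166 bases and had 59.8, 29.6 and 46.3 CPM in severe leaves, against 16, 13.5 and 9.76 CPM in control leaves. No source used here tells whether counting used strand, so reads in the overlap cannot be told apart, and the part of that overlap in the rise was not tested.

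Sobic.010G247700 (chromosome 10, 58767418 to 58768653, plus strand) had 37.1, 5.98 and 6.25 CPM in severe leaves, against 0.212, 0 and 0 CPM in control leaves, where the 3 libraries held 4 reads in all. The log2 change was 7.77 (SE 2.02) (adjusted p = 0.000551). Its control and moderate means, 0.0706 and 0.0111 CPM, lay under the filter level of 0.487 CPM. It was therefore tested only through its severe libraries, and its adjusted p is a description only. Its moderate libraries held 1 read together against 610 in the severe libraries, that is 1098 times as many at equal library size, with 196.4 and 43450 as the bounds of the 95% counting interval. Most of these reads came from severe replicate 1, without which the severe mean was 6.11 in place of 16.5 CPM. The log2 change against control was 6.35 without severe replicate 1 and 11.43 without control replicate 1.

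Sobic.006G058600 and Sobic.004G230900 rose with the same uneven severe group. Sobic.006G058600 had 522, 166 and 113 CPM in severe leaves, against 5.4, 4.72 and 4.5 CPM in control leaves (log2 change 5.77 (SE 1.25), adjusted p = 6.6e-05), and 4.83 without severe replicate 1. Sobic.004G230900 had 95.6, 47.7 and 17.9 CPM in severe leaves, against 3.97, 3.75 and 3.03 CPM in control leaves (log2 change 3.90 (SE 0.95), adjusted p = 0.000261), and 3.19 without severe replicate 1. In both genes the lowest severe library still lay above the highest control library. Sobic.004G230900 overlaps Sobic.004G230800 by 1029 bases, and that gene had 10.4, 7.53 and 3.24 CPM in severe leaves, against 8.52, 3.40 and 2.02 CPM in control leaves.

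Sobic.002G387200 (chromosome 2, 74142514 to 74145880, plus strand) was higher in moderate than in control leaves and higher again in severe leaves. It had 8.52, 9.28 and 11.3 CPM in control, 19.6, 18.1 and 18.2 CPM in moderate and 278, 164 and 152 CPM in severe leaves. No library of one condition overlapped those of another, and the severe-to-control log2 change was 4.35 (SE 0.82) (adjusted p = 1.46e-05). Sobic.002G058700 had 437, 209 and 259 CPM in severe leaves, against 37.2, 32.8 and 33.2 CPM in control leaves (log2 change 3.13 (SE 0.67), adjusted p = 5.68e-05). Sobic.001G426800 had 420.5, 333 and 364 CPM in severe leaves, against 41.6, 42.4 and 62.5 CPM in control leaves (log2 change 2.93 (SE 0.60), adjusted p = 3.85e-05). Sobic.003G023000 had 576, 206 and 239 CPM in severe leaves, against 61.8, 54.8 and 41.5 CPM in control leaves (log2 change 2.69 (SE 0.69), adjusted p = 0.000481; 2.07 without severe replicate 1). Sobic.007G018200 and Sobic.010G160300 rose by 2.68 and 2.60 on the log2 scale (adjusted p = 4.52e-05 and 4.3e-05). The 70 other members called higher changed by 0.58 to 4.63.

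The largest severe falls left several members at a small fraction of their control level. Sobic.001G357200 (chromosome 1, 64709044 to 64711235, plus strand) had 0.952, 12.6 and 6.31 CPM in severe leaves, against 117, 125 and 148 CPM in control leaves, a log2 change of -4.28 (SE 1.13) (adjusted p = 0.000657). Sobic.001G417400 had 0.571, 2.51 and 2.31 CPM in severe leaves, against 24.4, 28.1 and 36.1 CPM in control leaves (log2 change -3.99 (SE 0.91), adjusted p = 0.000125). Sobic.001G323701, already low in moderate leaves, changed by -3.82 (SE 1.00) (adjusted p = 0.000565). Severe libraries lay below control libraries in all of these. Severe replicate 2 was the highest of the severe group for several, and without it the changes of Sobic.001G357200 and Sobic.001G323701 became -5.13 and -4.46.

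The remaining named falls were Sobic.006G197700, Sobic.004G343000, Sobic.002G131700, Sobic.007G227600, Sobic.001G224200 and Sobic.007G171800, with log2 changes of -3.71, -3.56, -3.31, -3.21, -3.12 and -3.01 and adjusted p of 6.15e-05, 0.000666, 8.7e-05, 0.00136, 0.00268 and 0.000196. Sobic.002G131700 had 559, 496 and 534 CPM in control, 129.5, 185 and 195 CPM in moderate and 30.9, 75.5 and 53.1 CPM in severe leaves. Sobic.007G171800 had 356, 330 and 333 CPM in control, 91.2, 115 and 107 CPM in moderate and 22.2, 68.1 and 35.9 CPM in severe leaves. Both members held less in each stressed group than in any control library. Sobic.007G227600 changed by -4.43 and Sobic.004G343000 by -4.75 without severe replicate 2. The 33 other members called lower changed by -2.89 to -0.57. Over all tested members, severe and control libraries did not overlap for 147 (72.4%), against 72.1% of all tested genes.

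Members that rose and members that fell under severe stress also had different median levels in control leaves. The 43 that fell had a median of 50.5 CPM there, the 80 that rose 28 CPM and the 80 without a call 31 CPM. Among the 32 members with at least 100 CPM in control leaves, 4 rose (Sobic.005G191700, Sobic.009G246950 and, named after their values were seen, Sobic.007G022500 and Sobic.007G017400) and 16 fell in severe against control, while 16.3% and 59.6% of the 1726 genes at that level did. Since control values pick these genes and enter the change, these counts are a description only. In moderate against control leaves 0 of the 32 rose and 6 fell by edgeR, against 1.33% and 31.3% of the 1726 genes, and in severe against moderate 12 rose and 11 fell, against 23.1% and 39.5%. At the low end, 11 tested members were under 1 CPM in control leaves, of which 8 rose and 0 fell in severe leaves by edgeR, while 48.1% and 13.8% of the 3855 tested genes at that level did. A member this low in control can pass the filter on low counts through a stressed group in which it is high, so these counts are a description only. Of the 11, 4 reached at least 5 CPM in severe leaves: Sobic.001G513200 and Sobic.010G247700, and, named after their values were seen, Sobic.003G432900 and Sobic.005G179400, at 5.14 and 5.48 CPM.

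**Figure D3:**
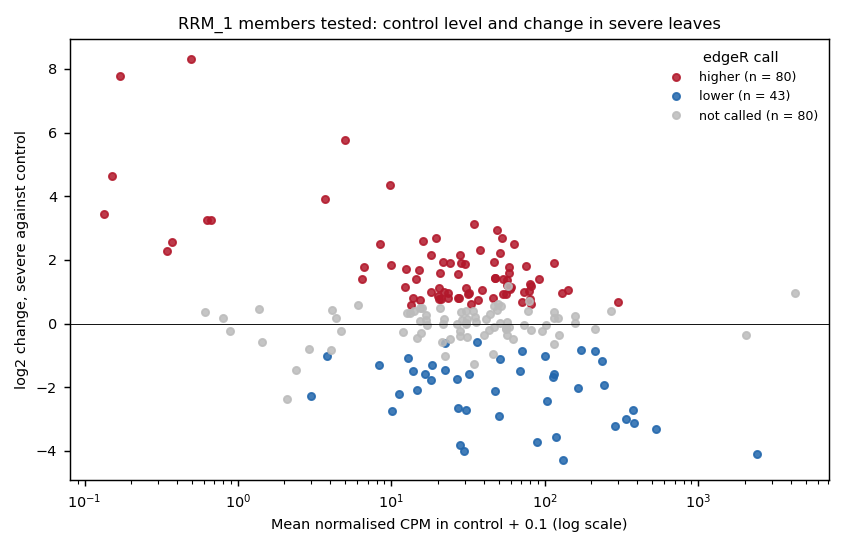
Log2 change in severe against control leaves (vertical axis) against the mean normalised CPM in control leaves (log axis), 1 point per tested member, coloured by call. The 4 members of at least 100 CPM that rose stand beside 16 that fell, and the largest rises sit at the left end.

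Severe against moderate leaves, the largest rises included 8 members already described. Sobic.010G247700, Sobic.001G513200, Sobic.006G058600, Sobic.004G230900, Sobic.002G387200, Sobic.002G058700, Sobic.003G023000 and Sobic.010G160300 had log2 changes of 9.84, 8.70, 6.14, 3.97, 3.41, 3.27, 2.67 and 2.43 here. As both comparisons use the severe libraries, this is no second observation of the rise. Without severe replicate 1, Sobic.010G247700, Sobic.001G513200, Sobic.006G058600, Sobic.004G230900 and Sobic.003G023000 changed by 8.44, 7.37, 5.19, 3.25 and 2.05, and Sobic.010G247700 by 11.30 without moderate replicate 3. The other pair was Sobic.010G055500, with 283, 166 and 258 CPM in severe leaves, against 40.5, 37.7 and 42.1 CPM in moderate leaves (2.56 (SE 0.54), adjusted p = 8.1e-05), and Sobic.005G025700, with 99.6, 62.5 and 78.9 CPM in severe leaves, against 16.4, 14.6 and 14.6 CPM in moderate leaves (2.40 (SE 0.50), adjusted p = 5.79e-05). In both the lowest severe library was above the highest moderate one.

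Of the 10 largest falls, 6 are described above: Sobic.001G417400, Sobic.002G386400, Sobic.001G357200, Sobic.007G227600, Sobic.006G197700 and Sobic.001G224200 changed by -2.99, -2.73, -2.45, -2.45, -2.14 and -2.02 on the log2 scale. The call of Sobic.002G386400 was lost without severe replicate 3 (adjusted p = 0.0563) and that of Sobic.001G224200 without moderate replicate 2 or 3 (up to 0.0564). Without severe replicate 2, Sobic.002G386400, Sobic.001G357200 and Sobic.007G227600 changed by -4.22, -3.30 and -3.67. The other 4 were named in this comparison alone. Sobic.008G140700 had 1.81, 4.54 and 3.82 CPM in severe leaves, against 15.7, 17 and 20.4 CPM in moderate leaves, a log2 change of -2.37 (SE 0.59) (adjusted p = 0.00047). Sobic.002G332900, Sobic.001G043500 and Sobic.002G366800 changed by -2.11, -2.003 and -1.95 (adjusted p = 0.00151, 0.00645 and 0.0337). The last lost its call without any 1 of 5 libraries, with adjusted p up to 0.0981, and changed by -2.78 without severe replicate 2. The 21 further members called lower changed by -2.10 to -0.62 and the 85 called higher by 0.51 to 5.09. Groups did not overlap for 141 members (69.5%), against 69.6% of all tested genes.

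Some members of at least 20 CPM hardly differed between conditions with TMM scaling. The 3 with the narrowest range of group means among those with at least 20 CPM were Sobic.008G015500, Sobic.009G151800 and Sobic.002G317400. Sobic.008G015500 averaged 21.4 ± 1.29 CPM in control, 21.4 ± 3.29 CPM in moderate and 21.1 ± 2.62 CPM in severe leaves (SD, n = 3 each). Sobic.009G151800 averaged 56.9 ± 2.74, 54 ± 1.8 and 59.2 ± 9.72 CPM in the same order, and Sobic.002G317400 35.4 ± 4.62, 38.6 ± 6.12 and 36.4 ± 6.94 CPM. Since this range chose them, the values are a description, and their small changes take either sign under other settings. With raw totals Sobic.009G151800 changed by 0.40 in moderate against control and by -0.63 in severe against moderate leaves. Sobic.008G015500 changed by 0.47 in moderate against control leaves, and none of these changes passed the threshold.

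At the other end, 27 of the 230 members had too few reads to be tested. 11 of them had no read in any library, 14 had 1 to 50 reads over the 9 libraries and 2 had more, with at most 66. The level that the filter on low counts asks for was 0.487 CPM, which 181 of the 203 tested members exceeded in all 9 libraries. Of the other 22, 7 exceeded it in all severe but not all control libraries and 12 in all control but not all severe libraries. Such members passed the filter through the group in which they are high.

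The members lie on all 10 chromosomes, from 7 on chromosome 8 to 45 on chromosome 1, with 1 on an unplaced scaffold. Their genomic spans, introns included, run from 696 to 18446 bases, with a median of 4650.5. Members that rose in severe against control leaves had a median span of 4928 bases, those that fell 4206 bases and those without a call 5028.5 bases.

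Of 21 other labels looked up for RNA-binding or RNA-processing proteins, 12 had at least 3 tested genes, and their calls in severe against control leaves stand beside 31.6% higher and 34.9% lower among all tested genes. G-patch proteins, many of which partner RNA helicases in splicing, rose in 5 of 9 tested genes with 0 falls (median log2 change 0.61). CCCH zinc finger proteins, several of which bind messenger RNA, rose in 10 of 20 and fell in 3. KH-domain proteins, which bind single-stranded RNA through another fold, rose in 7 of 21 and fell in 6. DEAD-box proteins, the main family of RNA helicases, rose in 16 of 62 and fell in 22. Pentatricopeptide repeat proteins, which edit and process organelle transcripts, rose in 11 of 73 and fell in 31 (median -1.21), and S1-domain proteins, a fold shared with ribosomal protein S1, rose in 1 of 9 and fell in 4 (median -1.72). In the other 6, LSM genes rose in 2 of 11 and fell in 3, zf-CCHC genes rose in 3 of 8 and fell in 3, and zf-RanBP genes rose in 4 of 10 and fell in 2. PUF genes rose in 2 of 7 with 0 falls, Helicase_C genes rose in 2 of 7 and fell in 2, and SAP genes rose in 0 of 5 and fell in 2. In moderate against control leaves 8.94% of all tested genes rose and 8.17% fell. By edgeR 0 of the 73 pentatricopeptide repeat genes rose and 5 fell there, 0 and 5 of the 62 DEAD-box genes, and 0 and 5 of the 9 S1-domain genes. Each of the other labels had at most 2 rises and 3 falls. These families were tested neither against each other nor against the RNA recognition motif genes.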

How the data were processed

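The deposited table, made by the authors, holds whole-number read counts per gene with no normalisation for 9 libraries, FPKM values, gene positions and lengths, a family label, and fold changes with p-values and adjusted p-values. The submitters' processing notes name HISAT2 2.0.5 and DESeq2 1.20.0. The sources used here do not name the read counter, the genome build or any use of strand. The counts were tested with edgeR 4.0.16 and limma 3.58.1 under R 4.3.3. Low genes were dropped by filterByExpr, and libraries were scaled by TMM, a method that takes most genes as unchanged. By the calls above that premise did not hold in severe leaves. There 66.5% of all tested genes were called against control and 63.2% against moderate. All 9 libraries were fitted together with 1 mean per group, and 3 contrasts were tested by edgeR's 2-sided quasi-likelihood test, adjusted by the Benjamini-Hochberg method over all 22356 tested genes, at a threshold of 0.05. Each SE was back-calculated as the size of the log2 change over the normal deviate that its p-value matches. The FPKM deposited by the authors were used only to compare levels between members. They divide by the length deposited by the authors, which for all 230 members equals the genomic span, so long introns lower them. Of the p-values deposited by the authors, only the number under the threshold was taken.

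The members and lists were chosen with earlier results of these data known. For each contrast the text names up to 10 rises and 10 falls, the largest among members past the threshold whose groups do not overlap and whose mean reaches 5 CPM. It also names the 8 members with most reads and the 3 flattest of those with at least 20 CPM. A planned grouping by protein type was dropped because the IDs have no descriptive names here. For the same reason no protein or promoter sequence is shown. The alternatives were DESeq2 size factors, raw totals, no filter, the 6 libraries of a contrast alone, a block for the replicate number, DESeq2 1.42.0, and leaving out each library. The procedure was also run on simulated data in which few genes changed, evenly in both directions. Such data cannot show how the scaling behaves where most genes are called, as in the severe comparisons. Counting intervals cover counting error only, since no source used here mentions molecular identifiers. Replicates of each group differed by more than counting noise (chi-square 17.6 to 308.4 per degree of freedom).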

Additional observations from a re-analysis of the deposited data

How the results depend on the processing

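The 82 changes named for single members were recomputed under up to 15 alternatives each, 1227 values in all: 1087 kept direction and side of the threshold, 99 lost the call, 14 gained it and 27 changed sign. Counts of members moved most in moderate against control leaves, where the 8 rises became 15 with raw totals, 16 with the 6 libraries alone and 0 to 9 with 1 library left out, and the 17 falls became 4, 78 and 6 to 58, and 35 with DESeq2. The median of -0.28 became 0.20 with raw totals, -0.23 with no filter, -0.25 with the 6 libraries alone and -0.30 to -0.25 with 1 library left out. In severe against control leaves the 80 rises became 52 with raw totals and 72 to 86 with 1 library left out, the 43 falls 34 to 51, and the median of 0.34 became -0.0236 with raw totals, 0.44 with DESeq2 size factors, 0.44 with DESeq2, 0.23 with no filter and 0.26 to 0.39 with 1 library left out. In severe against moderate leaves the 95 rises became 42 with raw totals and 79 to 100 with 1 library left out, the 31 falls 48 with raw totals, 20 with the 6 libraries alone and 17 to 33 with 1 library left out (19 without moderate replicate 2, 17 without moderate replicate 3), and the median of 0.50 became -0.29 with raw totals, 0.60 with DESeq2 size factors, 0.60 with DESeq2 and 0.46 to 0.54 with 1 library left out. With 1 library left out, 3 to 16% of all tested genes rose and 2.99 to 16.1% fell in moderate against control leaves. These shares were 27.6 to 31.8% and 29.9 to 35.1% in severe against control leaves. They were 25.2 to 30% and 26.9 to 33.7% in severe against moderate leaves, where 28.5% fell with the 6 libraries alone. Members minus all tested genes, the median stayed between -0.33 and -0.25, 0.23 and 0.59, and 0.57 and 0.79 in the 3 comparisons over these settings. With the replicate number as a block, 5 members (2.46%) rose and 14 (6.9%) fell in moderate against control, against 8.45% and 7.35% of all tested genes. In severe against control 77 (37.9%) rose and 41 (20.2%) fell, against 30.2% and 35.1%. In severe against moderate leaves 90 (44.3%) rose and 32 (15.8%) fell, against 28.4% and 33.9%. Same-numbered libraries correlated at -0.03 to 0.26 in their deviations from the group means, over 0.1 in 6 of 9 pairs. As not every pair passed 0.1 and no label says what a number shares, the numbers were not taken as pairs, although a library correlated best with its own number in 12 of 18 checks, each among 3 libraries, a hint from the data and not from the design. The block ended the calls of Sobic.002G387200, Sobic.010G105600 and Sobic.010G008100 in moderate against control and of Sobic.005G191700 in severe against control leaves (adjusted p = 0.0582, 0.0504, 0.0541 and 0.0504 in that order), and changed no other call of a named member. Of members near no change, raw totals gave moderate against control 0.059 for Sobic.001G141300, 0.37 for Sobic.005G191700, 0.16 for Sobic.009G246950, 0.40 for Sobic.009G151800 and 0.47 for Sobic.008G015500. They gave severe against control -0.22 for Sobic.002G317400 and -0.23 for Sobic.009G151800, and severe against moderate -0.63 for Sobic.009G151800. Sobic.008G015500 took 0.0283 with no filter, 0.0172 with the 6 libraries alone and -0.0866 to 0.129 with 1 library left out in moderate against control. It took 0.0796 with DESeq2 size factors, 0.0811 with DESeq2 and -0.0886 to 0.0658 with 1 library left out in severe against control, and 0.0855, 0.0881 and -0.143 to 0.073 in severe against moderate. Sobic.002G317400 took -0.0823 to 0.174 with 1 library left out in severe against control, and 0.0166, 0.0179 and -0.23 to 0.0455 in severe against moderate, and Sobic.009G151800 -0.069 to 0.168 with 1 library left out in severe against control. The authors' deposited adjusted p-values call 96 of 215 members with a value in moderate against control (44.7%, against 36.3% of genes), 125 of 215 in severe against control (58.1%, against 54.0%) and 118 of 216 in severe against moderate (54.6%, against 51.5%). By the authors' calls the members' share was thus the higher in all 3 comparisons. By edgeR on all 9 libraries it was the lower, at 12.3% against 17.1%, 60.6% against 66.5% and 62.1% against 63.2%. The cause of these differences was not tested. A missing call does not show that a member kept its level.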

Other observations

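Of 31 pairs of neighbouring members within 100000 bases, 17 had both members tested, of which 3 pairs both rose, 0 both fell and 5 went opposite ways in severe against control leaves. No share for other neighbouring genes was computed. The most-read such pair holds Sobic.002G386400, which changed by -4.09 (SE 1.25), and Sobic.002G387200, 60532 bases away, which changed by 4.35 (SE 0.82). Sobic.009G022100 on the minus strand and Sobic.009G022200 on the plus strand lie 126 bases apart, and changed by 1.58 (SE 0.41) and -0.84 (SE 0.27) (adjusted p = 0.000467 and 0.00407). Sobic.009G022100 had 224, 125 and 177 CPM in severe leaves, against 62.2, 55.8 and 57.7 CPM in control leaves, and Sobic.009G022200 98.7, 102 and 86.3 CPM in severe leaves, against 174, 169 and 172 CPM in control leaves. Sobic.007G018200 and Sobic.007G018900 also went opposite ways, with changes of 2.68 and -1.60. Pairs were picked for naming after their values were seen.

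4 of the 43 named members overlap another gene of the table. Beside the pairs above, Sobic.002G038300 overlaps Sobic.002G038200 by 804 bases and Sobic.010G055500 overlaps Sobic.010G055600 by 188 bases. The share of reads from those genes was not tested.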
